A study of Mus musculus with 2 samples.

Results

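The genes described here set the balance of phosphate and pyrophosphate outside the cell or bind mineral in the matrix. They were chosen by name from 10 gene symbols, and every probe set that the array's annotation ties to 1 of these symbols alone was used. Such probe sets were found for 7 of the 10 genes, Alpl, Ank, Ibsp, Mgp, Slc20a1, Slc20a2 and Panx3, among 18193 genes with a value in all, and 13 probe sets measured them. No probe set used here was tied to Enpp1 or Spp1, which were not analysed here. Phospho1 appeared only on 1 probe set that also names another gene, so it was not analysed here either.

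Rib chondrocytes came from wild-type mice and from mice with a V156D knock-in mutation of Matn1, and their RNA was compared. Matn1 encodes matrilin-1, an oligomeric protein of cartilage matrix. Both groups were taken at 5 days of age, and the cells were freed from dissected ribs with collagenase. Each genotype was represented by 1 Affymetrix array, and the design text describes RNA from the pooled cells of 5 littermates. Whether the knock-in was homozygous, which strain carried it, and the animals' sex are not given by the labels used here. With 1 array a genotype there is no replicate error, so nothing was tested, and each difference is one between 2 arrays that is not shown to be one between genotypes.

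Mineral forms in growth cartilage when phosphate accumulates around hypertrophic chondrocytes and pyrophosphate, which blocks crystal growth, is removed. Pyrophosphate is made from ATP outside the cell by ENPP1, its release depends on the membrane protein ANK, and it is split by tissue-nonspecific alkaline phosphatase, the product of Alpl. Acidic proteins such as bone sialoprotein and osteopontin bind the crystals, and matrix Gla protein keeps cartilage and vessels free of mineral.

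Of the 7 measured genes, 6 had a signal at or above the floor, and the signals of these 6 lay within 1.5-fold of each other between the arrays. The floor was an intensity of 54.6, the 50th percentile of all probe sets by mean log2 intensity, and each gene was represented by its brightest probe set. None of the 6 differed 2-fold, against 0.909% of the 11329 genes at or above the floor, and none differed 1.5-fold, against 3.72%. With so few members, a count of 0 lies near this background and is not a result about them. The log2 ratios of mutant over wild type ran from -0.37 for Panx3 to 0.24 for Alpl, with 3 above and 3 below 0 and a median of -0.03. The median of all genes at or above the floor was -0.02, with 5074 above and 6231 below 0. The central 95% of their ratios ran from -0.55 to 0.49. In bulk RNA of this kind, fewer cells of a type and less RNA per cell cannot be told apart.

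**Figure D1:**
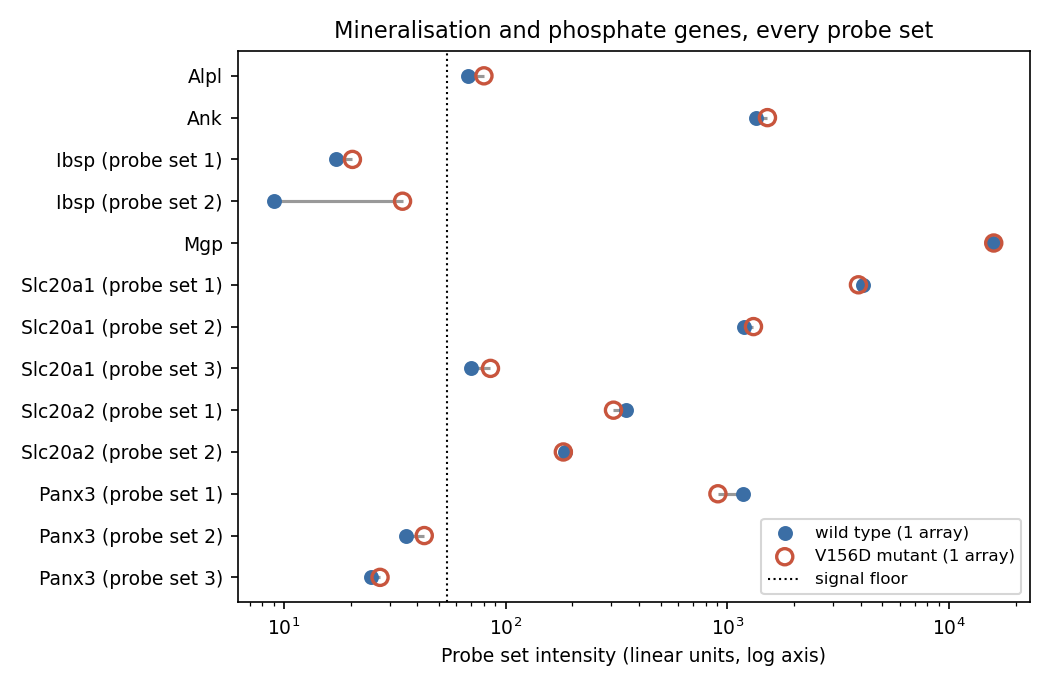
Intensity of each of the 13 probe sets in the wild-type array (filled circles) and the mutant array (open circles), on a log axis; probe sets of a gene are numbered from the brightest and the dotted line is the signal floor of 54.6. The circles overlap or nearly touch for most probe sets, and the widest gap is that of the dimmer Ibsp probe set, from 8.98 to 34.3, left of the floor.

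Of the enzymes and transporters that act on pyrophosphate and phosphate, Alpl and Ank were slightly higher in the mutant array. Alpl, which frees phosphate by splitting pyrophosphate and other phosphate esters, read 67.6 in the wild-type array against 79.9 in the mutant array, a log2 ratio of 0.24. Its single probe set lay not far above the floor in both arrays, and 24.5% of genes at or above the floor had ratios at least as far from 0. Ank, the multipass membrane protein needed for pyrophosphate release, read 1344 in the wild-type array against 1518 in the mutant array, a log2 ratio of 0.18, also from a single probe set. Both ratios stayed above 0 under each of the 8 alternative scalings, offsets and probe set rules, Alpl between 0.17 and 0.24 and Ank between 0.15 and 0.25.

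The sodium-dependent phosphate importers Slc20a1 (PiT-1) and Slc20a2 (PiT-2) had small differences. The brightest Slc20a1 probe set read 4110 in the wild-type array against 3908 in the mutant array, a log2 ratio of -0.07. None of the 9 member probe sets that reached the floor, those of Slc20a1 included, differed 1.5-fold, against 3.59% of all such probe sets. The other probe sets of Slc20a1 lay on the other side of 0, with 1194 and 1313 for the second and 69.5 and 85.5 for the third, or ratios of 0.14 and 0.30. The mean over all Slc20a1 probe sets was 0.12 ± 0.19 (SD of the 3 probe sets, which measures probe disagreement and not sample error), so the direction of Slc20a1 depended on the probe set. Slc20a2 read 349 in the wild-type array against 307 in the mutant array with its brightest probe set, a log2 ratio of -0.18, and 185 and 182 with the other, a ratio of -0.02. Both Slc20a2 probe sets were thus lower in the mutant array, by at most 1.14-fold.

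Panx3, a channel of the pannexin family that releases ATP from hypertrophic chondrocytes and osteoblasts, had the ratio farthest from 0 among the 6 genes, and its probe sets did not share a sign. The brightest read 1173 in the wild-type array against 908 in the mutant array, 1.29-fold lower, and 11.3% of genes at or above the floor had ratios at least as far from 0. The name of this probe set ends in _s_at, the Affymetrix mark for probes that can match more than one transcript. The other 2 probe sets lay below the floor in both arrays, at 35.5 and 43.0 and at 24.7 and 27.1, with ratios of 0.28 and 0.14. The range over the 3 probe sets was 0.65 on the log2 scale, so only the bright probe set carried the lower value.

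Mgp, which encodes the vitamin K-dependent matrix Gla protein, had almost the same signal in both arrays. Its intensity was 15882 in the wild-type array against 15935 in the mutant array, a log2 ratio of 0.0048. This was the smallest difference of the measured members. Array median centring gave a ratio of -0.02 and the loess correction 0.05, so Mgp had no settled direction.

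Ibsp, which encodes bone sialoprotein, a crystal-binding protein of bone and of mineralising cartilage, was the member whose probe sets disagreed most. Its brighter probe set read 17.2 in the wild-type array against 20.4 in the mutant array, a log2 ratio of 0.25. The dimmer had 8.98 and 34.3, a ratio of 1.93 or 3.82-fold higher in the mutant array. All 4 values lay below the floor of 54.6, so Ibsp stayed out of the counts above. Of the 15500 probe sets below the floor that are tied to 1 gene, 0.284% had a ratio of 2-fold or more in favour of the mutant array. The gap between the Ibsp probe sets was 1.69 on the log2 scale. Among the 3217 genes with at least 2 probe sets below the floor, 1 gene, Ibsp itself, had a gap this large between the brightest and the next. The SD of the signed differences between these 2 probe sets was 0.31.

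**Figure D2:**
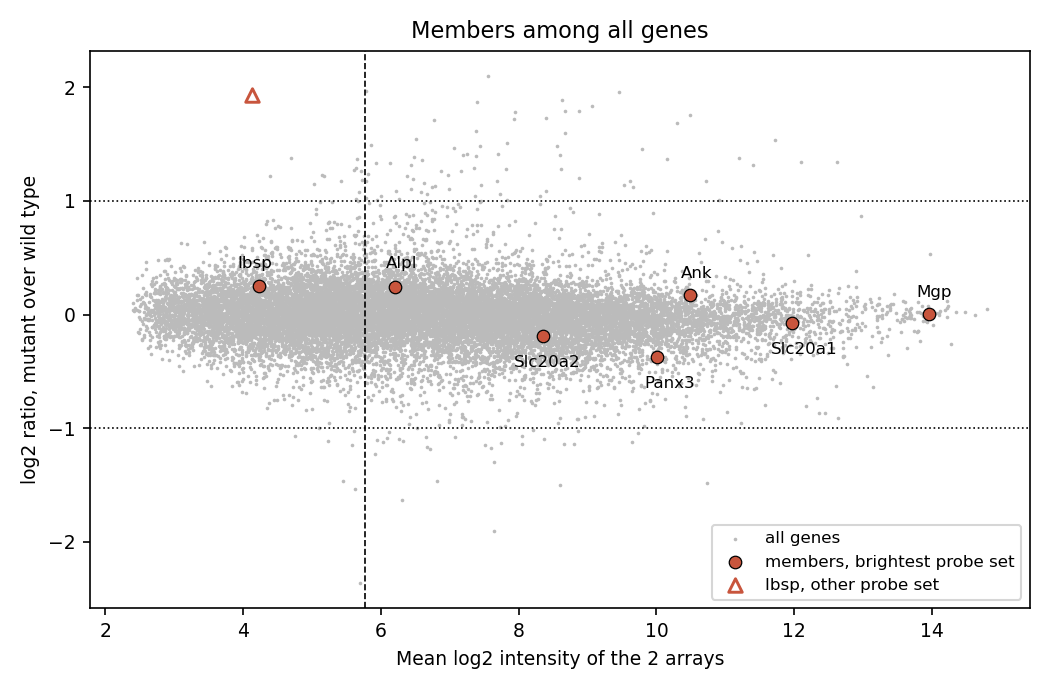
The log2 ratio of mutant over wild type against the mean log2 intensity of the 2 arrays, for all genes (grey) and the 7 measured members (red, brightest probe set); the dashed line is the floor and the dotted lines mark 2-fold. The red points lie within the grey band, between -0.37 and 0.25, while the dimmer Ibsp probe set (open triangle) stands at 1.93 left of the floor.

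The sequence around the start of Ibsp is shown because its dimmer probe set, below the floor, had the widest difference of the 13 member probe sets. By brightest probe set Panx3 was farthest from 0, at -0.37, and Ibsp was at 0.25. The sequence spans 250 bases before and 50 bases from the start of the gene, at chr5:104299037-104299336 on the plus strand of GRCm38.p6, from RefSeq. Capitals mark matches to the CCAAT box, here read as ATTGG on the other strand 54 bases before the start, and to the TATA box, here read as TTTATA on the other strand 28 bases before it.

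Ibsp: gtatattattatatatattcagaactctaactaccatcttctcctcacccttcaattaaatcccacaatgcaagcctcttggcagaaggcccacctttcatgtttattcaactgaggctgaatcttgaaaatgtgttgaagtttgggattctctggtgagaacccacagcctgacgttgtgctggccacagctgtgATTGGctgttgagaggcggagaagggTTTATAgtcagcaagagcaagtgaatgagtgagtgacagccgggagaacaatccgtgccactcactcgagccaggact

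Both motifs lie in the inverted orientation that is known for this promoter. Searched on both strands, the letters TATAAA occur in 13.6% and CCAAT in 37.4% of the 32851 start windows of this length in the RefSeq table. The core letters bound by RUNX factors, TGTGGT, which occur in 16.8% of the windows, are not in the Ibsp window. Windows were found for 4 of the 7 measured members, with 6 windows in all, and 1 of them, from Slc20a1, holds the RUNX core. These matches describe letters only, and the arrays measure RNA and not promoter activity.

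Ibsp lies on chromosome 5 in a cluster of related genes for acidic mineral-binding proteins, the SIBLING family, which runs Dspp, Dmp1, Ibsp, Mepe and Spp1 in the order of the RefSeq table. The other measured genes of the cluster had low signals. Mepe, which encodes a matrix phosphoglycoprotein of osteocytes, read 63.8 in the wild-type array against 64.0 in the mutant array. Below the floor, Dmp1, an osteocyte matrix protein, had 25.6 and 33.8 by its brightest probe set, a log2 ratio of 0.40. Its second probe set had 0.40 as well. The third, the only one left when probe sets that may match several transcripts were dropped, had -0.10. Dspp, known for dentin and also below the floor, had 40.6 and 49.1, a ratio of 0.28. These Dmp1 and Dspp values were chosen after they were seen. No gene of the cluster at or above the floor differed 1.5-fold, and Mepe was the one member of the cluster that reached it.

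Of the osteoblast and osteocyte markers, the collagen I genes were clearly higher in the mutant array. The others, mostly Pdpn by signal, were not higher as a sum. Of 9 measured, 6 reached the floor, and 5 of these were above 0 and 1 below, with 2 below after each of the 3 scalings. The median of the 6 was 0.24. The summed intensity of all 9 was 17362 in the wild-type array against 27502 in the mutant array, and none was listed at 0. Without Col1a1 and Col1a2 the other 7 summed to 1261 and 1221, so the collagens carried the whole difference of the sums. Most of this remainder was Pdpn, which was lower in the mutant array. Ifitm5, Sp7 and, barely, Mepe were higher by their brightest probe sets. Below the floor, by the same rule, Dmp1 and Phex were higher and Sost was lower. Col1a1, the main collagen of bone and of fibrous tissue, which the fibroblast list holds too, had 2759 and 7010, 2.54-fold higher, and the other collagen I gene, Col1a2, had 13342 and 19270. Among markers more restricted to bone, Ifitm5, a membrane protein of osteoblasts, had 90.7 and 120, a ratio of 0.40, and Sp7, the osteoblast factor osterix, had 82.7 and 88.0. Pdpn had 961 and 862, a ratio of -0.16. Phex, an endopeptidase of osteocytes named after its value was seen, was 2.33-fold higher by its brighter probe set, from 13.7, and had 14.8 and 13.4 with the other, all below the floor. The part of these markers in the Ibsp value was not tested.

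Among other genes of phosphate handling and its hormonal control, those with a signal at the floor or higher were close to equal. Of 14 measured, 6 reached the floor, with 2 above and 4 below 0 as deposited but 2 below after quantile normalization or the loess correction. None was past 1.5-fold and the median was -0.04. The 8 below the floor included Phex and Dmp1, given above, and Galnt3, an enzyme that stabilises FGF23, at -0.44 by its brightest probe set and 0.23 by the next. Galnt3 was named after its values were seen. The intestinal and lung phosphate importer Slc34a2 had a ratio of 0.12 and the phosphate exporter Xpr1 0.04, which was -0.09 as the mean over its 7 probe sets. Fam20c, the kinase that phosphorylates secreted mineral-binding proteins, was lowest at -0.07. Fgfr1, a receptor for FGF23, was next at -0.05 but lay above 0 in 5 of the 8 alternatives, up to 0.27.

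Among enzymes of pyrophosphate, nucleotides and adenosine, 1 gene differed. Ada, which encodes adenosine deaminase, read 257 in the wild-type array against 134 in the mutant array, 1.92-fold lower, from a single probe set. The other 6 of the 7 genes at or above the floor stayed within 1.5-fold, 4 above and 2 below 0, and the list median was 0.05. Entpd2 and Entpd5, which hydrolyse nucleotides, were highest at 0.27 and 0.15. Nt5e, the 5'-nucleotidase that makes adenosine, had 2113 and 2059, a ratio of -0.04 that was above 0 after quantile normalization and the loess correction.

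Gap junction and purine receptor genes, which include the relatives of Panx3, did not differ 1.5-fold. Of the 6 that reached the floor, 2 had ratios above 0 and 4 below, with a median of -0.05. Panx1 read 99.3 in the wild-type array against 98.3 in the mutant array. The ATP receptors P2rx4 and P2rx7 were lowest at -0.34 and -0.31, but their probe sets reached 0.38 and 0.24, so the sign depended on the probe set. Both stayed below 0 in each of the 8 alternatives, at -0.08 and -0.05 as means over their probe sets. The connexin genes Gjc1 and Gja1 were highest at 0.03 and 0.02, Gja1 at -0.03 as the mean over its probe sets.

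Matrix vesicles, the membrane particles in which cartilage mineral starts, carry annexins and phospholipid enzymes. Of 10 such genes measured, all reached the floor, with 5 below 0 as deposited but 2 below after quantile normalization, the loess correction or averaging over probe sets. None was past 1.5-fold as deposited and the median was 0.02. Chka, the choline kinase at the start of phosphatidylcholine synthesis, was lowest, at 695 in the wild-type array against 483 in the mutant array. Its log2 ratio was -0.52, and the mean of its 3 probe sets, -0.63 ± 0.11 (SD between them), is past 1.5-fold. Anxa1 had -0.17, with 0.26 for its other probe set. Chkb and Anxa6 were highest at 0.13 and 0.10.

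Among the other mineral-binding proteins and inhibitors of mineralisation, Gas6 and Tnfrsf11b differed 1.5-fold, in opposite directions, by their brightest probe sets as deposited. Gas6, a vitamin K-dependent ligand of receptor kinases that carries Gla residues as Mgp does, read 479 in the wild-type array against 726 in the mutant array, 1.51-fold higher. It passed 1.5-fold in 3 of the 8 alternatives and missed it after median centring, with either offset, and by the mean or the second probe set, at ratios from 0.43 to 0.58. Tnfrsf11b, which encodes osteoprotegerin, the decoy receptor that restrains osteoclast formation, had 1450 and 866, 1.68-fold lower, but it missed 1.5-fold by its second probe set, at -0.15, and by the mean of both, at -0.45. Ucma, a Gla-rich protein of cartilage, had 7611 and 5864, a ratio of -0.38, with -0.01 for its other probe set, and the BMP antagonist Chrd had 0.43. Of the vitamin K cycle enzymes, which serve the activation of Mgp, Ggcx had 0.14 and Vkorc1 0.10. Vkorc1l1 had 0.02 by the brighter of its probe sets and -0.30 by the dimmer. Of these 8 inhibitors and vitamin K genes that reached the floor, 5 were above and 3 below 0, with a median of 0.06. Of 6 SIBLING and other mineral-binding genes at or above the floor none differed 1.5-fold, with Clec3b, which encodes tetranectin, at 0.47 and the proteoglycan gene Dcn at 0.09. Sparc (osteonectin) had 25166 and 25156 with its brightest probe set, but its 3 probe sets reached 0.37.

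Genes of hypertrophic cartilage, the zone in which Alpl, Ibsp and Panx3 are known to be expressed, were mostly below 0. Of all 11329 genes reaching the floor, 6231 lay below 0 and 5074 above as deposited. Of the 8 hypertrophic genes reaching it, 8 lay below 0 as deposited, with a median of -0.11. After quantile normalization or the loess correction 6 lay below 0. Pth1r and Vegfa, at -0.03 and -0.04, were the 2 that changed sign. Mmp13, the collagenase of this zone, was the one past 1.5-fold, at 726 and 426. Col10a1, the collagen specific to hypertrophic cells, had 4723 and 4407, a ratio of -0.10, and the protease gene Mmp9 had -0.27. Of the 8 transcription factors of maturation that reached the floor, 6 were above and 2 below 0, none past 1.5-fold, with a median of 0.09. Dlx5 and Mef2c, activators of hypertrophic and osteoblast genes, were highest at 0.36 and 0.33, and Sox9 and Foxa3 were lowest at -0.29 and -0.10.

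**Figure D3:**
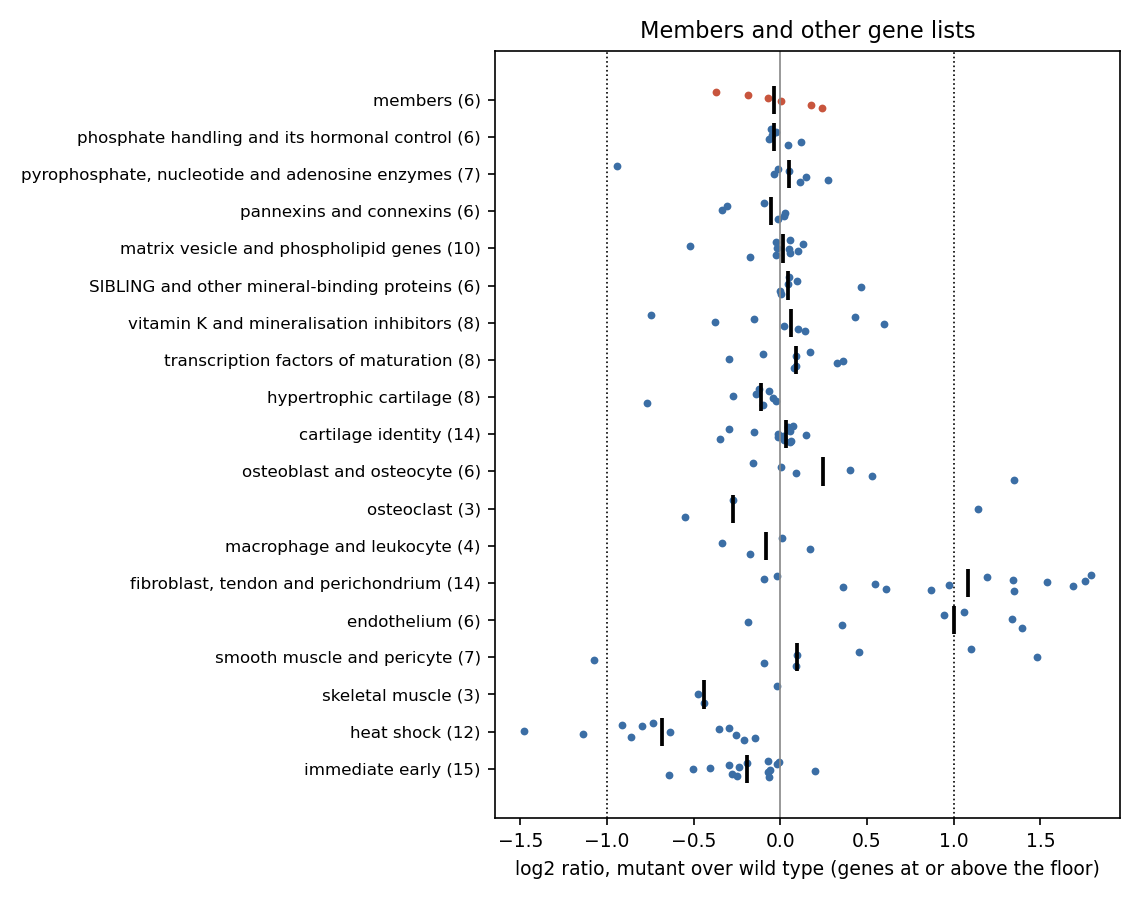
Log2 ratios of mutant over wild type for genes at or above the floor, by list, with the number of genes in brackets; points are genes, black bars are list medians and dotted lines mark 2-fold. The members (red) lie between -0.37 and 0.24, whereas fibroblast markers centre on 1.08 and heat shock genes on -0.68.

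The cells had the markers of cartilage, and the arrays differed in markers of other cell types. All 14 cartilage identity genes lay above the floor in both arrays, with a median ratio of 0.03 and a summed intensity of 169833 in the wild-type array against 171946 in the mutant array. Of 14 fibroblast, tendon and perichondrial genes 12 were above 0, against 5074 of all 11329 genes reaching the floor. Of the 14, 7 were at least 2-fold higher, against 0.653% of all genes reaching the floor, and the sums were 40880 and 65524. All lists were chosen with earlier results of these data known, so no excess over such a share counts as a test. Among 6 endothelial genes reaching the floor, 5 lay above 0 and 3 were at least 2-fold higher, with sums over all 10 of 677 and 1081. Of these 3, Emcn read 38.2 in the wild-type array against 96.4 in the mutant array. Its mean thus met the floor only through the mutant value. Cdh5 had 55.1 and 144, but a ratio of 0.11 by its other probe set. Esam had 70.5 and 147 from a single probe set. The count of 3 therefore depends in part on the floor rule and on the choice of probe set. Osteoclast markers divided. Ctsk was 2.20-fold higher and Acp5, which encodes tartrate-resistant acid phosphatase, 1.47-fold lower, and of the 9 measured only 3 lay at or above the floor. The sums were 1010 and 1519 for osteoclast markers, or 512 and 423 without Ctsk. Macrophage and leukocyte markers summed to 1928 and 1619, or 428 and 431 without Cd14. Skeletal muscle markers summed to 2421 and 1804, or 184 and 189 without Tnnt3 and Acta1. Smooth muscle and pericyte markers summed to 4058 and 4732, or 3833 and 4105 without Rgs5. Of the 7 reaching the floor 5 were above and 2 below 0. Rgs5 was 2.79-fold and Notch3 2.15-fold higher, and Cnn1 was 2.11-fold lower, each by its brightest probe set. The other Notch3 probe set had a ratio of 0.55, short of 1.5-fold. Below 0 lay all 12 heat shock genes, with sums of 114485 and 84883, against 6231 of all 11329 genes reaching the floor. So did 14 of 15 immediate early genes as deposited, with sums of 101473 and 91808. After quantile normalization 11 of these 15 lay below 0, and after the loess correction 12. None of the genes in the lists of this paragraph was listed at 0, and their part in the members' values was not tested.

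The members' values under the alternatives fell into separate patterns. Alpl, Ank, Mgp and Slc20a2 moved by less than 0.2 on the log2 scale. Alpl, Ank and Mgp have 1 probe set each, so the probe set rules could not move them. Slc20a1 and Panx3 changed sign when the probe sets of a gene were averaged, when the second brightest was used, or when probe sets that may match several transcripts were left out. Ibsp was between 0.22 and 0.25 where its brighter probe set represented it and 1.09 as the mean over both. An offset of 16 or 32 added before log2 made the other Ibsp probe set the brighter by mean log2, and the ratio became 1.01 or 0.69.

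**Figure D4:**
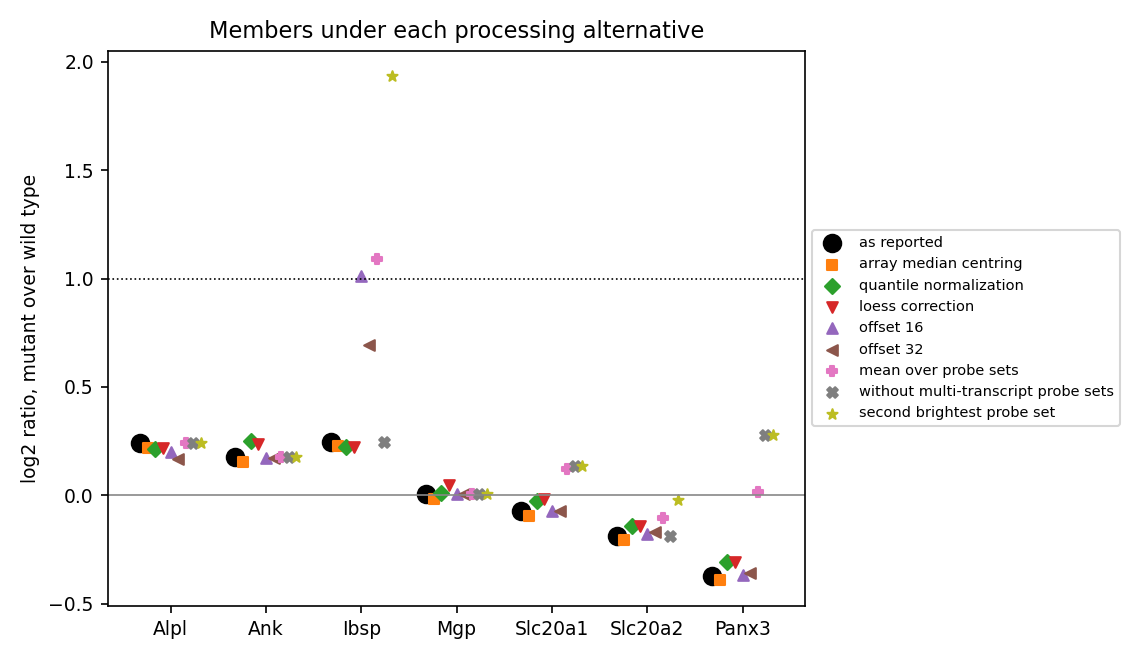
Log2 ratio of mutant over wild type of the 7 measured members as reported (black) and under 8 alternatives (coloured markers); the dotted line marks 2-fold higher. Ibsp spreads from 0.22 to 1.93 and Panx3 from -0.39 to 0.28, while the other members stay between -0.21 and 0.25.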

How the data were processed

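Probe set intensities, deposited by the authors on a linear scale, were analysed for 45037 probe sets in 2 arrays, 1 per genotype (medians 54.3 in the wild-type array against 55.1 in the mutant array). MAS5 is named in the submitters' processing notes; no source used here gives its settings, background step or scaling target. The log2 of 100% of values ended within 5 decimals (tolerance 0.05 of the last) and the SD of the log2 ratio was 0.17 in the dimmest decile of probe sets against 0.27 at or above the floor, so the summary may have been made on the log2 scale and differences at low signal may be compressed. This bears on Ibsp.

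Gene symbols came from GEO's annotation of the platform, and 34741 of 34945 with 1 symbol were found by Entrez identifier in RefSeq (GRCm38.p6); 932 with several symbols and 9160 with none were left out. Log2 values were used as deposited. Counting at 2-fold was tested on simulated data with larger changes, which does not bear on the 1.5-fold count or on small differences. The members and the 18 other lists (188 of 197 entries measured) were chosen with earlier results of these data known. Text names come from members and, per list at or above the floor, mainly the 2 highest, the 2 lowest and those past 1.5-fold. For marker lists mostly counts and sums are given. Python 3.11.15, numpy 2.4.6, pandas 2.3.3 and statsmodels 0.14.6 were used. Alternatives were median centring, quantile normalization, loess (span 0.3), offsets, other probe set rules, other floors and a 3-fold threshold.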

Additional observations from a re-analysis of the deposited data

How the results depend on the processing

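The counts of members past 1.5-fold and past 2-fold stayed at 0 under the 3 scalings, the 2 offsets, the 3 probe set rules, a floor at percentile 40 or 60, and no floor. Some of these could hardly have raised a count of 0. A floor at percentile 60 only removes members, and an offset draws the ratio of a probe set toward 0. A 3-fold threshold gave 0 as well, which the count of 0 at 2-fold fixed in advance. In 2 alternatives chosen after seeing the data, the second brightest probe set and the mean over probe sets, both with no floor, 1 member, Ibsp, was past 1.5-fold and past 2-fold. The median ratio of the members ranged from -0.07 with the floor at percentile 60 to 0.14 when probe sets shared by several transcripts were dropped, or 0.18 with the second brightest probe set and no floor, so its sign was not settled. Phex, 2.33-fold higher by its brighter probe set, was at -0.14 by the second. Of the scalings, median centring moved the median ratio of all probe sets the most, from 0.0010 to -0.02. Over the genes at or above the floor, quantile normalization moved the median the most, from -0.023 to 0.007. No paired analysis was possible because each genotype has 1 array. No sample could be left out for the same reason. Intensities near or below the floor limit what can be said of Ibsp and Alpl.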
